A study of Oikopleura dioica with 67 samples.

Results

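The genes described here are the factors that start, extend and end protein synthesis in Oikopleura dioica, a larvacean tunicate that keeps its tail for life. They were taken from the staged expression table as the unigenes (assembled transcripts) whose gene symbol began with EIF or EEF and a digit, or with ETF1, GSPT, PABPC, PAIP, DENR, MCTS1, ABCE1 or DHX29, ignoring case. This gave 76 of 19277 unigenes under 60 distinct symbols. DHX29 matched 0 unigenes. Initiation held 6 unigenes of eIF1, eIF1A, EIF1AD, eIF5, eIF5B and eIF6, 5 of eIF2 with eIF2A and eIF2D, 5 of eIF2B, 6 of eIF2 kinases, 13 of eIF3, 3 of eIF4A, 9 of eIF4E and its inhibitors, and 6 of eIF4G, eIF4B and eIF4H. Elongation held 1 unigene of eIF5A, 2 of eEF1A, 5 of eEF1B, 1 of eEF2 and 5 of elongation factor kinases and methyltransferases. Termination and recycling held 6 unigenes, and poly(A)-binding proteins with a partner held 3. Because 11 symbols sat on more than 1 unigene, unigenes are told apart by a short assembly number, such as DN14053. How reads were divided between unigenes of 1 symbol is not given in the sources used here, so the values of such unigenes are uncertain.

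RNA was sequenced from wild-type animals of a Japanese population that had been cultured at 20 °C for over 180 generations. A staged set of 43 libraries covered 13 stages with 3 libraries each (unfertilized egg, fertilized egg, 2, 4, 8, 16 and 32 cells, 1.5 hours post fertilization or hpf, tadpole at 2.5 hpf, hatched larva at 3 hpf, early organogenesis at 5 hpf, late organogenesis at 8 hpf and juvenile at 10 hpf), with 2 adult females and 2 adult males. A hemisphere set of 24 libraries covered animal hemispheres, vegetal hemispheres and whole embryos at 8 cells and at 12 hpf, with 4 libraries numbered 3 to 6 in each of 6 groups. The labels do not say how hemispheres were obtained at 12 hpf, when the animal has already hatched and its body is built. The labels name no treatment, and the groups of the staged set differ in stage or sex.

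In eukaryotes eIF4E binds the cap of an mRNA, eIF4G joins it to the helicase eIF4A and to eIF3 on the small ribosomal subunit, and eIF2 brings the initiator tRNA. Kinases of eIF2 and the eIF4E-binding proteins lower initiation, and eIF2B recharges eIF2 with GTP. The factor eEF1A then delivers aminoacyl-tRNAs, the eEF1B complex recharges it, eEF2 moves the ribosome along, and eRF1 (ETF1) with eRF3 (GSPT) releases the finished protein. Eggs of many animals hold stored factors and mRNAs that serve the embryo until its own transcription takes over.

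Values are RPKM, a read density corrected for the length of the unigene and for the number of reads in the library, so levels can be compared between unigenes. Means are given ± SD. Differences are given ± SE on the scale of log2(RPKM + 1), on which the changes of weakly expressed unigenes come out too small. Adjusted p-values are from limma over all unigenes tested, with a threshold of 0.05. A staged library had 7785352 to 95644620 reads, of which 18.9% to 49.0% aligned, and the reads behind each unigene are unknown. Of the members 75 were tested in the staged set and 72 in the hemisphere set. The unigene EEF1G DN39945 stood at 10.0 RPKM in a single 3 hpf library, number 34, was listed at 0 in the 42 other staged libraries and was not tested. Egg library 9, run on another lane than egg libraries 29 and 41, stood apart for several members: DENR was at 376 RPKM in it against 99.7 and 91.6. Male library 26 had 6277 unigenes at 1 RPKM or more, against 9574 in male library 25 and 11913 and 12591 in the females. The labels do not tie the libraries of a group to separate cultures or animals, and p-values therefore measure only the spread between these samples. In bulk RNA, fewer cells of a type and less RNA per cell cannot be told apart.

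The translation factors took a smaller part of the measured RNA in the juvenile than in the egg. Their summed RPKM was 4.25% ± 0.679 of a library's total in the egg, 5.72% ± 0.919 at 32 cells, 2.92% ± 0.996 in the tadpole and 1.38% ± 0.199 in the juvenile (n = 3 each). The 2 female libraries stood at 3.23% and 3.55%, and the 2 male libraries at 1.76% and 0.844%. The eEF1A unigene DN18094 made up much of this sum, and without it the share was 2.16% ± 0.221 in the egg and 0.772% ± 0.0689 in the juvenile. In the egg 34 members averaged 100 RPKM or more, against 10 at 8 hpf, 15 in the juvenile, 37 in females and 11 in males. The highest 6 in the egg, each above 1000 RPKM, were Eef1a1 DN18094, Eef2, EEF1D DN11820, EEF1G DN14450, Eef1b and Eif5a, all of them elongation factors. The mean of 58 of the 76 was lower in the juvenile than in the egg, and of 17 higher. The same was not counted over all unigenes. Unigenes at 1 RPKM or more numbered 7603 to 8202 in the egg libraries and 15432 to 16166 in the juvenile libraries. The part of this change in the result was not tested.

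**Figure D1:**
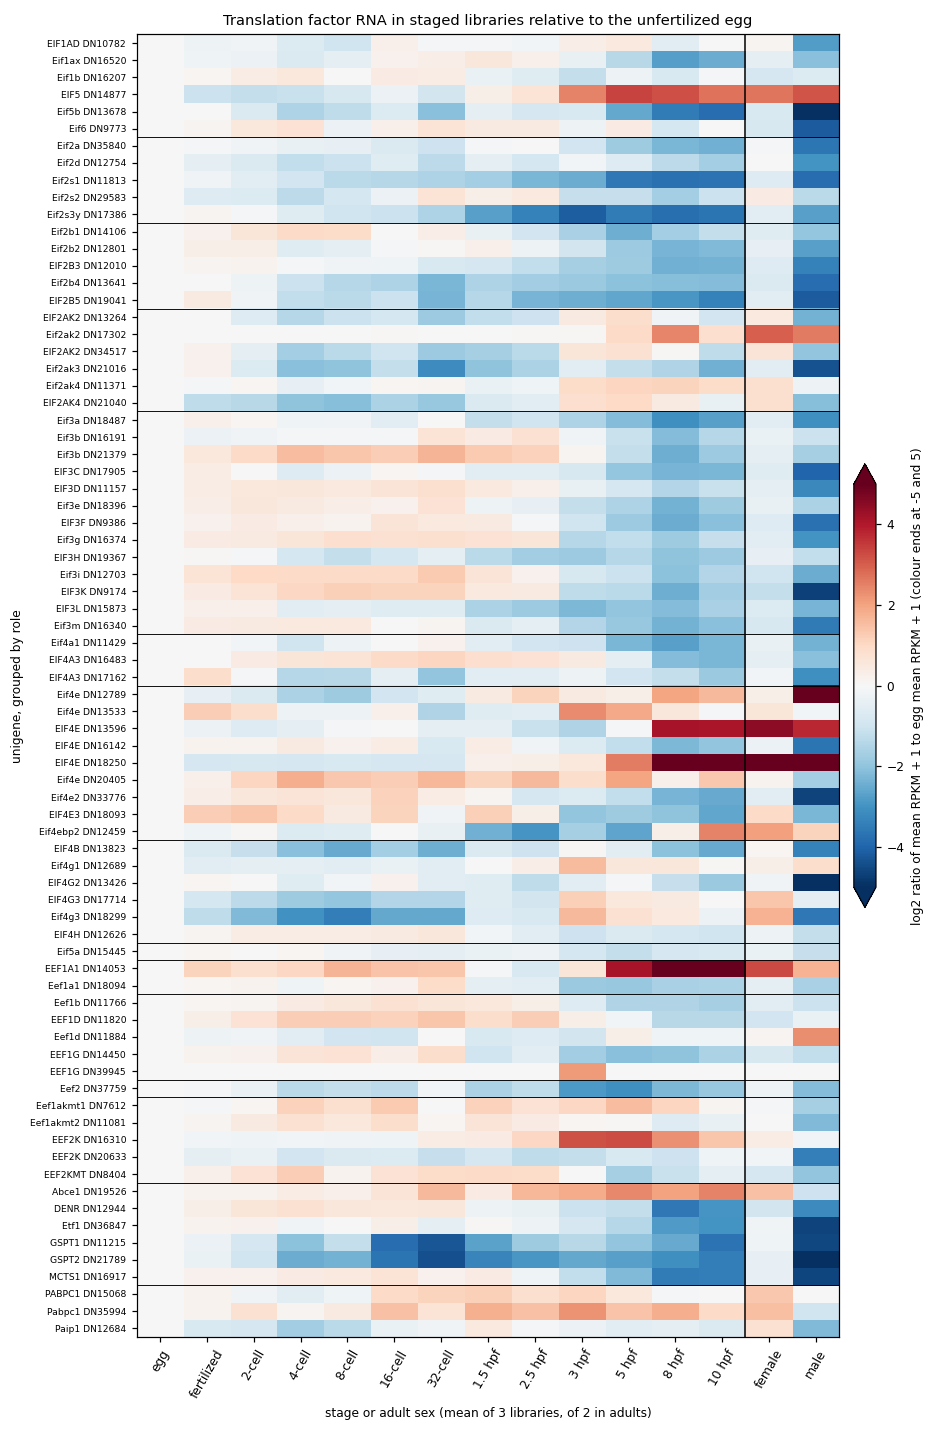
Each row is 1 of the 76 translation factor unigenes, grouped by role, and each column a stage or sex; colour gives the log2 ratio of the mean RPKM plus 1 to that of the unfertilized egg, with the scale ending at -5 and 5. Most rows turn lower from 3 hpf to the juvenile and in males, while EEF1A1 DN14053, EIF4E DN18250, EIF4E DN13596 and EIF5 turn higher.

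Not all members followed that course. The stage with the highest mean was an egg or cleavage stage, up to 32 cells, for 48 members, with 11 of these at 32 cells, while 9 were highest at 5 hpf, 5 at 8 hpf and 3 in the juvenile. The stage of the highest mean was not counted over all unigenes. Levels differed among the 13 stages for 69 of the 75 tested (limma F-test), which is 92% against 92.9% of all 18704 unigenes, so the members were not called more often than other unigenes. The highest F was that of EEF1A1 DN14053 (66.4, adjusted p = 6.52e-19), followed by EIF4E3, a cap-binding protein of the eIF4E family (38.5), and EIF4E DN18250 (30.6). The 6 that did not pass were Eif6, which keeps ribosomal subunits apart (adjusted p = 0.236), EEF2K DN20633 (0.177), Eif2d (0.144), EIF1AD (0.105), Eef1d DN11884 (0.0691) and Eif1b (0.0675), which were named after their values were seen.

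The eEF1A unigenes, which deliver aminoacyl-tRNAs to the ribosome, were both lower in the tadpole than at 32 cells and parted after it. In the staged set DN18094 was the most abundant member by far. It was at 16992, 20050.5 and 19133 RPKM in the eggs, 41616, 29002 and 35158 at 32 cells, and 11629.5, 20030.2 and 7069 in the tadpoles. Its juvenile libraries were at 5083, 6465 and 7414 RPKM. The 32-cell libraries lay above all others of the course, and the juvenile libraries below every egg and cleavage library. It fell by 1.56 ± 0.38 on the log2 scale from 32 cells to the tadpole (adjusted p = 0.00183) and by 0.92 ± 0.38 from there to the juvenile (adjusted p = 0.0337). This last fall did not pass after quantile normalization, which gives every library the same distribution of values (adjusted p = 0.194), nor without tadpole library 3 or 4 or juvenile library 22 or 23 (adjusted p from 0.0585 to 0.254).

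EEF1A1 DN14053 was at 7.51, 5.09 and 4.71 RPKM in the eggs and at 3.78, 2.40 and 2.68 in the tadpoles. It stood at 73.8, 121 and 154 at 5 hpf, 418, 517 and 368 at 8 hpf, and 495, 655 and 653 in the juveniles. Every library from 5 hpf to the juvenile lay above every library of the stages before 5 hpf. The rise from tadpole to juvenile was 7.25 ± 0.40 (adjusted p = 2.16e-17), or 153-fold on the scale of RPKM plus 1. Of the RPKM of both eEF1A unigenes, DN14053 held 0.0274% in the tadpole, 2.52% at 5 hpf and 8.72% ± 0.569 in the juvenile, so DN18094 remained the larger at each stage. The adults were lower than the juvenile, at 72.8 and 57.0 RPKM in the females and 18.9 and 23.9 in the males.

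For EEF1G DN14450, EEF1D DN11820 and Eef2 the highest mean of the 13 stages also came before the tadpole. EEF1G DN14450, the gamma subunit of the eEF1B exchange complex, was at 4192, 3069.6 and 3819 RPKM at 32 cells and 1026, 1920.0 and 1113 in the tadpole, groups that did not overlap (-1.49 ± 0.40, adjusted p = 0.00502). EEF1D DN11820, the delta subunit, was at 4867, 8379.5 and 4942 RPKM in the tadpole and 1076, 1116 and 736 in the juvenile, and fell by 2.61 ± 0.52 (adjusted p = 5.06e-05). The translocase Eef2 was at 2143, 4171 and 3815 RPKM in the egg, 225, 371 and 607 at 5 hpf, and 643, 986 and 1113 in the juvenile. Its 5 hpf libraries lay below all egg libraries, and its fall from 32 cells to the tadpole was 1.42 ± 0.46 (adjusted p = 0.0206). That fall was lost after quantile normalization (adjusted p = 0.0921) and without 32-cell library 1, tadpole library 3 or tadpole library 32 (adjusted p from 0.0532 to 0.301). EEF2K DN16310 carries the symbol of the kinase that phosphorylates and so inhibits eEF2. It was under 1 RPKM in every egg and cleavage library, at 1.81, 17.6 and 11.2 at 3 hpf, 14.8, 12.0 and 5.69 at 5 hpf, and between 2.19 and 2.27 in the juvenile. The other unigene of that symbol, EEF2K DN20633, was between 4.67 and 21.5 RPKM in the eggs.

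**Figure D2:**
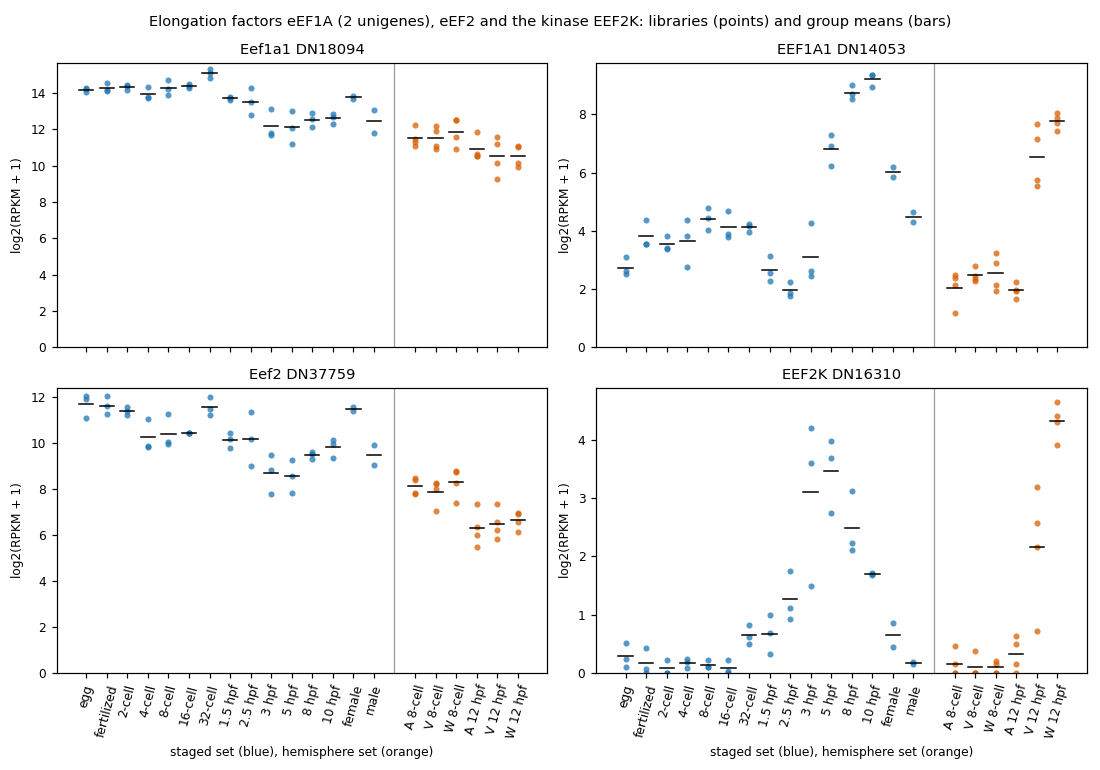
Log2 of RPKM plus 1 of the eEF1A unigenes Eef1a1 DN18094 and EEF1A1 DN14053, of Eef2 and of EEF2K DN16310, with a point for each library and a bar for the group mean, over the stages, sexes and hemisphere groups. DN14053 is low until 3 hpf and in the animal hemisphere at 12 hpf. It is high from 5 hpf to the juvenile and in the vegetal hemisphere at 12 hpf, and lower in adults than in the juvenile. DN18094 has its highest group mean at 32 cells, and Eef2 is lower at 3 and 5 hpf than in every other staged group.

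The cap-binding protein eIF4E was spread over 6 unigenes, and a different one had the highest mean share of their summed RPKM in the egg, the female and the male. In the egg DN16142 held 56.2% ± 18.4 and DN20405 32.7% ± 19.1 (n = 3), with ranges that overlapped (34.9% to 67.0% and 21.7% to 54.8%), and DN20405 led in 1 of the 3 libraries. In the juvenile DN20405 held 51.1% ± 17.7, DN18250 21.3% ± 12.5 and DN13596 11.6% ± 6.75, with 8.81% ± 1.47 left to DN16142. In the 2 female libraries DN18250 held 32.2% and 39.9%, more than any other, and in the 2 male libraries DN12789 held 60.7% and 67.1%. At 8 cells DN20405 held 52.3% ± 5.09 in the staged set (n = 3) but 11.4% ± 2.12 in whole embryos of the hemisphere set (n = 4), where DN16142 held 72.7% ± 4.04. The sets were made apart, and this difference was not tested. The summed RPKM of the 6 moved less, with 404 ± 39.8 in the egg, 688 ± 244 in the juvenile (n = 3 each), 813 ± 144 in females and 934.5 ± 221 in males (n = 2 each).

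EIF4E DN18250 was listed at 0 in every library at 32 cells and was at 1.35, 0.832 and 1.49 RPKM in the tadpole. It was at 8.70, 14.9 and 5.60 at 5 hpf, 20.2, 201 and 376 at 8 hpf, and 39.9, 153 and 302 in the juvenile, a rise of 5.82 ± 0.64 over the tadpole (adjusted p = 8.67e-10). The tadpole and juvenile libraries were far apart, although the juveniles themselves spanned a wide range. EIF4E DN13596 followed it, from 1.40, 1.63 and 1.42 RPKM in the tadpole to 20.6, 87.5 and 162 in the juvenile (4.77 ± 0.67, adjusted p = 1.24e-07). EIF4E DN16142 went the other way, from 194, 159 and 252 RPKM in the tadpole to 43.3, 63.7 and 67.8 in the juvenile, and fell by 1.78 ± 0.44 (adjusted p = 0.000614).

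Eif4e DN12789 was highest in males. It stood at 523 and 662 RPKM in the males, 4.78 and 5.24 in the females, and at 21.9 or less in every other staged library. The difference, female minus male, was -6.62 ± 0.63 (adjusted p = 8.19e-11). A list of 16 sperm unigenes summed to 11892 to 14318 RPKM in the males and 116 to 177 in the females, and its part in this result was not tested.

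Eif4ebp2, which binds eIF4E and keeps it from eIF4G, was at 37.4, 41.7 and 30.7 RPKM in the egg and 25.7, 26.6 and 30.7 at 32 cells. It dropped to 2.13, 4.84 and 4.81 in the tadpole (-2.59 ± 0.47, adjusted p = 5.15e-05) and stood at 203, 236 and 182 in the juvenile (5.45 ± 0.47, adjusted p = 2.68e-12). None of these tadpole libraries overlapped with the stages on either side of the comparison. EIF4E3 was at 417, 385 and 236 RPKM in the tadpole and 40.97, 52.2 and 44.7 in the juvenile, and fell by 2.85 ± 0.33 (adjusted p = 1.79e-09). Eif4e2, a cap-binding relative that represses translation in other animals, fell by 1.21 ± 0.39 from 32 cells to the tadpole (adjusted p = 0.0202, but 0.112 without 32-cell library 47 and 0.0988 without tadpole library 32).

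**Figure D3:**
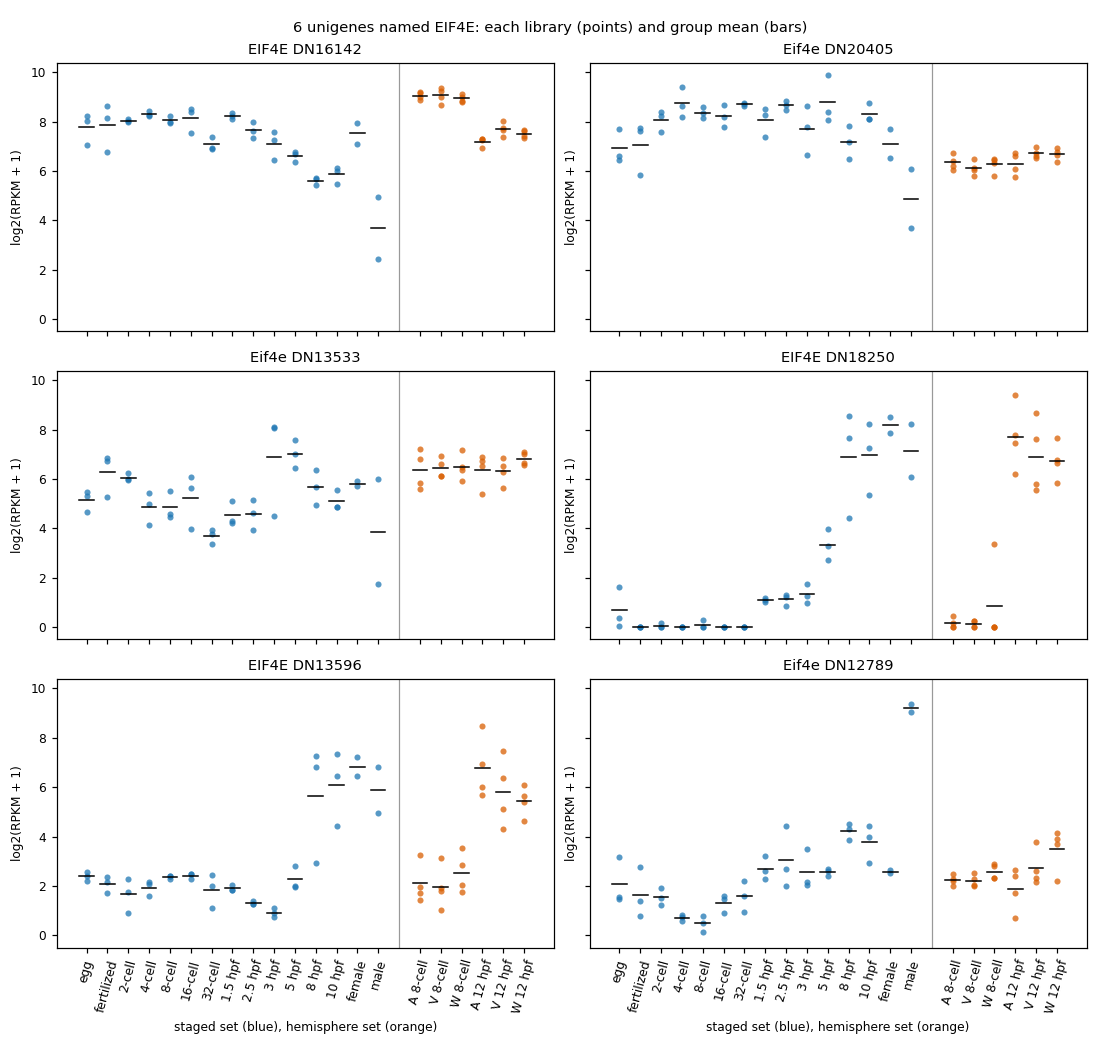
Log2 of RPKM plus 1 of the 6 unigenes named EIF4E, with a point for each library and a bar for the group mean, across the staged set and the hemisphere set. DN16142 and DN20405 have the highest group means from egg to tadpole in the staged set, DN16142 alone stands highest at 8 cells in the hemisphere set, DN18250 and DN13596 are higher at 8 hpf, in the juvenile and in adults than up to 5 hpf, and DN12789 is high in the 2 male libraries.

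Unfertilized eggs and 32-cell embryos were compared to see which factors changed over fertilization and cleavage together. Both eRF3 unigenes, 2 of 6 eIF2 kinase unigenes and 2 of 5 eIF2B unigenes fell, while the partner of eRF3, Etf1, did not pass (-0.54 ± 0.43, adjusted p = 0.641). GSPT2, an eRF3 that helps eRF1 end translation, was at 106, 281 and 271 RPKM in the egg and 13.3, 7.98 and 7.18 at 32 cells (-4.31 ± 0.44, adjusted p = 4.79e-09). GSPT1, the other eRF3 symbol, was at 57.3, 206 and 234 and then 9.97, 9.39 and 3.50 (-4.14 ± 0.74, adjusted p = 0.000117). For both, the groups did not overlap, and the levels of the stages between were intermediate, with GSPT2 means from 219.6 in the egg to 9.475 at 32 cells. Eif2ak3, the eIF2 kinase PERK, fell by 3.08 ± 0.62 (adjusted p = 0.000565), and the eIF2B subunits Eif2b4 and EIF2B5 fell by 2.31 ± 0.45 and 2.18 ± 0.53. Among those that rose were Eif4e DN20405 (1.79 ± 0.55, adjusted p = 0.0226), Eif3b DN21379, a core subunit of eIF3 (1.73 ± 0.49, adjusted p = 0.013), and Abce1, which splits ribosomes after termination (1.53 ± 0.42, adjusted p = 0.0107).

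In all, 17 of 75 members passed in this comparison, 6 higher and 11 lower at 32 cells. This was 22.7% of the members, against 15.6% of all unigenes tested (3.13% higher and 12.5% lower). The groups did not overlap for 37 members, against 27.6% of all unigenes. The median member moved by 0.00 and the median unigene by -0.03. Of the eIF4G, eIF4B and eIF4H group 2 of 6 fell, while 1 of 13 eIF3 unigenes rose. Egg libraries were on lanes 4 and 5 and the 32-cell libraries on lane 6, so stage and lane cannot be told apart. The count was 29 without egg library 9 (12 higher and 17 lower), 6 without egg library 29, 8 without egg library 41, 7 without 32-cell library 48, and 7 when only these libraries were fitted. GSPT2, GSPT1, Eif2ak3, Eif2b4 and EIF2B5 passed with each library left out in turn. The rise of Eif3b DN21379 was lost without egg library 29 or 41 (adjusted p = 0.0669 and 0.0702), that of Abce1 without egg library 29 or 32-cell library 48 (adjusted p = 0.0638 and 0.0963), and that of Eif4e DN20405 without any library but egg library 9 (adjusted p from 0.0529 to 0.137). After quantile normalization 6 were higher and 6 lower, with a median of 0.23 over the members and 0.08 over all unigenes.

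From 32 cells to the 2.5 hpf tadpole several elongation factors fell. Both eEF1A unigenes, EEF1G DN14450 and Eef2 were lower, by the amounts given above or, for EEF1A1 DN14053, by 2.16 ± 0.40 (adjusted p = 6.19e-05). Eif2s3y, the gamma subunit of eIF2, was at 137, 63.0 and 82.2 RPKM at 32 cells and 32.9, 24.7 and 18.9 in the tadpole, without overlap, and fell by 1.80 ± 0.51 (adjusted p = 0.0075). Eif4a1, the helicase of the cap complex, fell by 1.32 ± 0.41 (adjusted p = 0.0155). The eRF3 unigenes moved the other way, GSPT1 by 2.40 ± 0.74 (adjusted p = 0.0149) and GSPT2 by 1.46 ± 0.44 (adjusted p = 0.012), and after quantile normalization neither passed (adjusted p = 0.244 and 0.257). Without 32-cell library 48 or tadpole library 3 both were lost too, and GSPT1 also without tadpole library 4 (adjusted p from 0.0600 to 0.1002). Eif2s3y was lost without 32-cell library 1 or tadpole library 32 (adjusted p = 0.0624 and 0.0504), and Eif4a1 without 32-cell library 47 or tadpole library 32 (adjusted p = 0.0567 and 0.231).

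Here 17 of 75 members passed, 5 higher and 12 lower. This was 22.7%, close to the 22.8% of all unigenes, but all unigenes had passed mostly upward (16.8% higher and 5.97% lower). The median was -0.19 over the members and 0.21 over all unigenes. After quantile normalization the medians were -0.30 and -0.08, and 11 passed, 0 higher and 11 lower. Groups without overlap were found for 47 members (42.8% of all unigenes). The 32-cell and tadpole libraries were from different runs and lanes, so stage and lane cannot be told apart here either. The count was 10 without 32-cell library 1 or tadpole library 32, and 11 without 32-cell library 48 or tadpole library 3. The same 32-cell libraries served in the comparison with the egg and in this one, and the tadpole libraries in this one and the next, so the comparisons are not independent of each other.

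Between tadpole and juvenile 11 of 13 eIF3 unigenes and 4 of 6 termination and recycling unigenes fell. Those that did not pass in the latter group were GSPT2 (-0.49 ± 0.44, adjusted p = 0.331) and Abce1 (0.82 ± 0.42, adjusted p = 0.0900). MCTS1, which with DENR removes tRNA and mRNA from the small subunit and reinitiates translation, was at 222, 274 and 232 RPKM in the tadpole and 25.4, 22.9 and 26.7 in the juvenile (-3.22 ± 0.44, adjusted p = 9.52e-08). Its partner DENR was at 87.0, 157 and 196 and then 23.8, 29.7 and 17.2 RPKM, and fell by 2.54 ± 0.62 (adjusted p = 0.000544). Neither gene's groups overlapped. Etf1, the release factor eRF1, fell by 2.70 ± 0.43 (adjusted p = 1.24e-06).

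Eif3b DN21379 was at 175, 217 and 158 RPKM in the tadpole and 23.5, 25.6 and 18.3 in the juvenile, and fell by 2.98 ± 0.49 (adjusted p = 2.24e-06). Eif3a, the largest eIF3 subunit, was at 146, 181 and 123.1 and then 39.8, 41.97 and 51.6 RPKM, and fell by 1.73 ± 0.39 (adjusted p = 0.000205). Over the 13 eIF3 unigenes the median was -1.72, and 0 rose. EIF4A3 DN16483, a DEAD-box helicase of the eIF4A family that sits in the exon junction complex, fell by 3.00 ± 0.33 (adjusted p = 6.82e-10). Eif5b, the GTPase that joins the ribosomal subunits, fell by 2.99 ± 0.54 (adjusted p = 1.01e-05), and Eif1ax, which assists scanning, by 2.77 ± 0.36 (adjusted p = 3.57e-08).

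Of 75 members 33 fell and 7 rose, or 53.3% in all, against 64.0% of all unigenes (47.5% higher and 16.5% lower). The median was -0.78 over the members and 0.76 over all unigenes. After quantile normalization the members' median was -1.47, that of all unigenes -0.14, and the split 5 higher and 48 lower. The 7 that rose were EEF1A1 DN14053, EIF4E DN18250, EIF4E DN13596, Eif4ebp2, EIF5, the eIF2 kinase Eif2ak4 DN11371 and EEF2K DN20633. EIF5, which makes eIF2 hydrolyse its GTP at the start codon, was at 11.1, 5.29 and 18.7 RPKM in the tadpole and 35.4, 46.8 and 72.7 in the juvenile (2.14 ± 0.70, adjusted p = 0.0082, but 0.0585 without tadpole library 4). EEF2K DN20633 was lost without tadpole library 32 or juvenile library 24 (adjusted p = 0.191 and 0.146). After quantile normalization 11 of 13 eIF3 unigenes passed as lower. Groups without overlap were found for 44 members, against 70.7% of all unigenes. Tadpole and juvenile libraries were from different runs and lanes, so stage and lane cannot be told apart. A list of 70 muscle unigenes summed to 2351 to 7542 RPKM in the tadpole and 15904 to 27280 in the juvenile, a list of 91 digestion unigenes to 328 to 352 and 9098 to 10902, and their part in the result was not tested.

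Adult females and males were compared, with 2 libraries of each sex on the same lane. Most initiation factors and all 9 termination, recycling and poly(A)-binding unigenes were higher in the female. Eif5b was at 56.1 and 103 RPKM in the females and 2.21 and 0.260 in the males (5.26 ± 0.66, adjusted p = 2.83e-08). EIF4G2, an eIF4G relative without the eIF4E-binding site, was at 60.5 and 78.9 against 1.67 and 1.22 RPKM (4.85 ± 0.51, adjusted p = 7.01e-10). MCTS1 was at 132 and 293 against 20.8 and 1.01 RPKM (4.90 ± 0.54, adjusted p = 2.28e-09). In each of these the lower female library was above the higher male library.

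GSPT2 was at 101 and 232 RPKM in the females and 5.22 and 3.63 in the males (4.84 ± 0.54, adjusted p = 2.03e-09), and Etf1 was higher by 4.60 ± 0.52 (adjusted p = 4.03e-09). All 6 termination and recycling unigenes were higher, with a median of 4.50. Of the 13 eIF3 unigenes 12 were higher (median 3.04), and all 5 of the eIF2 group, all 5 of eIF2B, all 3 of eIF4A and all 3 poly(A)-binding unigenes. After quantile normalization 10 eIF3, 4 eIF2 group, 4 eIF2B, 3 eIF4A and 5 termination unigenes were still higher, and 0 poly(A)-binding unigenes passed. EIF3K, a peripheral eIF3 subunit, was at 179 and 163 RPKM in the females and 28.3 and 0.526 in the males (4.68 ± 0.75, adjusted p = 2.43e-06).

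Among the elongation factors, the translocase and both eEF1A unigenes were higher in females, EEF1A1 DN14053 only without quantile normalization. Eef2 was at 2979 and 2668 RPKM in the females and 967 and 521 in the males (1.99 ± 0.56, adjusted p = 0.0033), and Eef1a1 DN18094 at 14633 and 13084 against 8695 and 3609 (1.30 ± 0.46, adjusted p = 0.0192). Neither Eif5a (0.82 ± 0.36, adjusted p = 0.0553) nor EEF1G DN14450, EEF1D DN11820 or Eef1b passed. EEF1G was at 1152 and 1158 RPKM in the females and 1204 and 495 in the males. The other unigene of the delta subunit, Eef1d DN11884, was at 44.2 and 30.6 RPKM in the females and 228 and 119 in the males (-2.13 ± 0.54, adjusted p = 0.00107), and was with Eif4e DN12789 the only member that passed as higher in males.

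**Figure D4:**
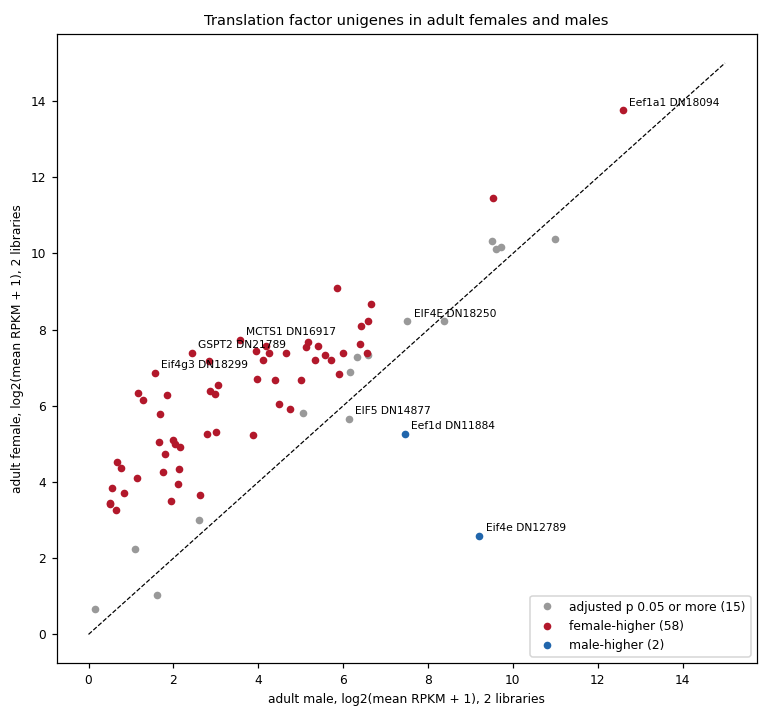
Log2 of the mean RPKM plus 1 of each translation factor unigene in the 2 female libraries (vertical) against the 2 male libraries (horizontal), with the 58 called higher in females in red, the 2 called higher in males in blue, 15 not called in grey and the diagonal as equality. Most points lie above the diagonal, and Eif4e DN12789 lies farthest below it.

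Of 75 members 58 were higher in females and 2 in males, together 80% against 46.8% of all unigenes (40.2% and 6.61%). The median was 2.72 over the members and 0.73 over all unigenes. After quantile normalization these medians were 1.48 and -0.04, and the split was 42 and 5. The groups did not overlap for 62 members, against 69.9% of all unigenes. Of 60 symbols counted once each, 50 were higher and 0 lower. Both members that passed as higher in males, Eif4e DN12789 and Eef1d DN11884, share their symbol with other unigenes, and this count does not show them. Without male library 26, which left 1 male library, the members' median was 1.71. The differences were then 0.67 for Eef1a1 DN18094, 1.54 for Eef2, 1.35 for DENR and 0.71 for PABPC1 DN15068. When the 4 adult libraries were fitted alone the count was 20 (19 higher and 1 lower). EEF1A1 DN14053 was higher in females by 1.55 ± 0.49 (adjusted p = 0.00784) and did not pass after quantile normalization (adjusted p = 0.823) or without female library 27 or male library 25 (adjusted p = 0.0618 and 0.0528). Eef1a1 DN18094 was also lost without female library 27 or 28 (adjusted p = 0.0845 and 0.0570). A list of 11 germ line unigenes summed to 181 to 364 RPKM in the females and 7.23 to 58.1 in the males, and the 70 muscle unigenes to 2101 to 2232 and 21997 to 35163. Their part in the result was not tested.

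The female libraries were also set against the unfertilized egg, with the females shared with the comparison above. The largest differences were those of EIF4E DN18250 and EIF4E DN13596. EIF4E DN18250 was at 2.10, 0.0387 and 0.297 RPKM in the eggs and 229 and 365 in the females (7.49 ± 0.72, adjusted p = 1.9e-10), and EIF4E DN13596 was higher by 4.44 ± 0.75 (adjusted p = 1.3e-05). EEF1A1 DN14053 was higher by 3.30 ± 0.44 (adjusted p = 2.77e-07). Eif2ak2 DN17302, named for the RNA-activated kinase of eIF2, was listed at 0 in all 3 eggs and stood at 4.21 and 9.73 RPKM in the females. PABPC1 DN15068, the cytoplasmic poly(A)-binding protein, was at 63.8, 75.5 and 51.4 RPKM in the eggs and 156 and 174 in the females (1.38 ± 0.49, adjusted p = 0.0369). It was lost without egg library 9 or 41 (adjusted p = 0.0692 and 0.116). Without female library 27 or 28 its difference was 1.46 and 1.30. Pabpc1 DN35994, the other unigene of that symbol, also passed as higher. It too was lost without egg library 9 or 41 (adjusted p = 0.167 and 0.0901). The egg and female libraries did not overlap for any of these genes. In all 10 members were higher in the female and 0 lower, or 13.3% against 23.8% of all unigenes (23.7% higher and 0.112% lower), and the groups did not overlap for 31 members, against 54.6% of all unigenes. The members' median was -0.23 and that of all unigenes 0.33, and after quantile normalization -0.34 and -0.18. The count was 5 without female library 28 and 6 without female library 27 or egg library 9, which left both groups on lane 5.

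At the 8-cell stage no translation factor was told apart between the animal and the vegetal hemisphere. Of 72 members tested 0 passed in limma, against 0.401% of all unigenes (0.395% higher and 0.00637% lower), and 1 had an unadjusted p under 0.05, against 176 of all 15697 unigenes. This was EIF2AK2 DN34517, at 0.938, 1.16, 0.478 and 0.828 RPKM in the vegetal and 0.489, 0.222, 0 and 0 in the animal libraries (0.66 ± 0.32). The median difference was 0.07 over the members and 0.00 over all unigenes. The groups overlapped for all 72 members tested, and did not overlap for 1.15% of all unigenes. DN18094 was at 4821, 2167, 2571 and 2888 RPKM in the animal and 3838, 4572, 2188 and 1947 in the vegetal libraries.

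At 12 hpf a few factors differed strongly between the hemispheres. EEF1A1 DN14053 was at 53.1, 45.8, 141 and 203 RPKM in the vegetal and 3.78, 2.14, 2.87 and 2.92 in the animal libraries (4.57 ± 0.40, adjusted p = 7.7e-10). It was at 237, 170.1, 209 and 266 in the whole embryos, and at 1.27 to 5.99 in the hemispheres at 8 cells. EEF2K DN16310 was at 0.652, 3.46, 8.15 and 4.93 RPKM in the vegetal and 0.3995, 0, 0.540 and 0.107 in the animal libraries (1.85 ± 0.34, adjusted p = 9.11e-05, and 0.244 after quantile normalization). In whole embryos of 12 hpf it was at 14.1, 20.4, 24.3 and 18.8, above both hemispheres. DN14053 held 9.10% ± 10.8 of the eEF1A RPKM in the vegetal libraries, from 1.68% to 25.1%, and 0.156% ± 0.0439 in the animal libraries.

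DENR was at 48.5, 89.2, 63.7 and 73.1 RPKM in the vegetal and 20.8, 22.8, 34.5 and 18.9 in the animal libraries, without overlap (1.47 ± 0.21, adjusted p = 3.04e-06). Its partner MCTS1 was higher in the vegetal hemisphere by 0.85 ± 0.22 (adjusted p = 0.0028). Paip1, which binds the poly(A)-binding protein and stimulates translation, was at 21.8, 60.05, 17.9 and 21.1 against 9.09, 11.7, 2.90 and 3.91 RPKM (1.97 ± 0.42, adjusted p = 0.000427). Eif4ebp2 was at 3.98, 20.97, 8.76 and 4.91 against 0, 0, 4.24 and 2.76 RPKM (2.08 ± 0.55, adjusted p = 0.0028, and 0.124 after quantile normalization). Eif6 was higher by 1.14 ± 0.27 (adjusted p = 0.000931). Of the 6 unigenes of eIF1, eIF1A, EIF1AD, eIF5, eIF5B and eIF6, 5 passed as higher, 4 of them after quantile normalization. GSPT2 was lower in the vegetal hemisphere, at 39.8, 26.8, 21.1 and 25.8 against 65.4, 42.8, 33.2 and 56.7 RPKM (-0.77 ± 0.23, adjusted p = 0.00752). EIF2AK2 DN34517 was also lower (-1.11 ± 0.32, adjusted p = 0.00545).

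Of 72 members 21 were higher and 2 lower in the vegetal hemisphere at 12 hpf, or 31.9% against 48.2% of all unigenes (32.9% and 15.3%). The median was 0.27 over the members and 0.30 over all unigenes, and after quantile normalization 0.01 and -0.20, with 11 higher and 10 lower. The groups did not overlap for 14 members, against 34.5% of all unigenes. Of the elongation factor kinases and methyltransferases 4 of 5 were higher, and after quantile normalization 0 were, with 2 of those 4 turned in sign. The count was 13 when only these 8 libraries were fitted, and 30 (25 higher and 5 lower) with the library number as a block. Unigenes at 1 RPKM or more numbered 11255 to 12326 in the animal and 13700 to 14092 in the vegetal libraries. The 70 muscle unigenes summed to 1179 to 2039 RPKM in the animal and 5373 to 11988 in the vegetal libraries, the 91 digestion unigenes to 774 to 948 and 3054 to 8752, and the 11 germ line unigenes to 67.9 to 96.9 and 496 to 947. Their part in the result was not tested.

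**Figure D5:**
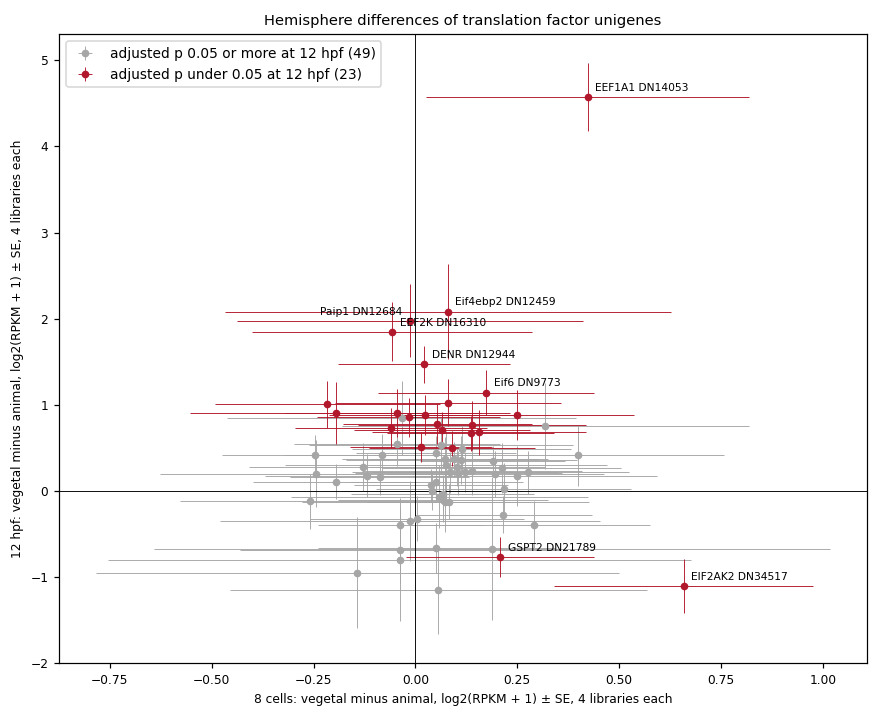
Vegetal minus animal log2 difference ± SE of each translation factor unigene at 12 hpf (vertical) against that at 8 cells (horizontal), with the 23 called at 12 hpf in red and 49 not called in grey. EEF1A1 DN14053 stands highest at 12 hpf, at 4.57, and no member was called at 8 cells.

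Whether the hemisphere difference itself changed between the stages was tested as an interaction. It was larger at 12 hpf for EEF1A1 DN14053 by 4.15 ± 0.56 (adjusted p = 2.1e-06), for Paip1 by 1.99 ± 0.60 (adjusted p = 0.0117), for DENR by 1.45 ± 0.30 (adjusted p = 0.000469) and for EEF2K DN16310 by 1.90 ± 0.49 (adjusted p = 0.00348). The interaction was negative for EIF2AK2 DN34517 (-1.76 ± 0.45, adjusted p = 0.00328), whose difference went from 0.66 at 8 cells to -1.11 at 12 hpf. For GSPT2 it was also negative (-0.98 ± 0.33, adjusted p = 0.0215), with a difference of 0.21 at 8 cells and -0.77 at 12 hpf. In all 11 of 72 members passed, 9 higher and 2 lower, or 15.3% against 35.6% of all unigenes (24.6% and 11%). With the library number as a block 18 passed, 15 higher and 3 lower, and after quantile normalization the split was 3 and 6. The median was 0.25 over the members and 0.25 over all unigenes, and -0.00 and -0.20 after quantile normalization. The count was 6 without animal 12 hpf library 3, and 7 without vegetal 12 hpf library 4 or 5 or vegetal 8-cell library 4 or 5.

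Whole embryos at 12 hpf were compared with whole embryos at 8 cells. The 5 largest rises were of unigenes already named. EIF4E DN18250 was listed at 0 in 3 of the 8-cell libraries and at 9.38 RPKM in library 6, and stood at 107, 56.6, 99.99 and 199.9 at 12 hpf (5.89 ± 0.71, adjusted p = 1.05e-07). EEF1A1 DN14053 rose by 5.22 ± 0.40 (adjusted p = 6.17e-11), and EEF2K DN16310 by 4.24 ± 0.34 (adjusted p = 1.79e-10). EIF5 was at 4.43, 5.32, 3.77 and 15.02 RPKM at 8 cells and 182, 191, 127 and 149.6 at 12 hpf (4.49 ± 0.32, adjusted p = 2.28e-11). For each of these the lowest 12 hpf library was above the highest 8-cell library. EIF4E DN13596 rose by 2.91 ± 0.64 (adjusted p = 0.000275), and EIF2AK4 DN21040, named for the amino-acid-sensing kinase of eIF2, by 1.86 ± 0.26 (adjusted p = 1.01e-06, and 0.0996 after quantile normalization).

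Among those lower at 12 hpf, EIF4E3 was at 1106, 1588, 532 and 1326 RPKM at 8 cells and 80.3, 105, 53.9 and 133 at 12 hpf (-3.56 ± 0.39, adjusted p = 2.33e-08). MCTS1 was at 423, 511, 469.7 and 297 and then 85.6, 76.5, 72.7 and 47.4 RPKM (-2.58 ± 0.22, adjusted p = 5.42e-10). The groups did not overlap for either. EIF2B5, the catalytic subunit of eIF2B, was at 33.7, 51.0, 56.9 and 39.97 and then 4.58, 6.46, 6.56 and 7.36 RPKM, and fell by 2.67 ± 0.28 (adjusted p = 1.29e-08). All 5 eIF2B unigenes fell (median -2.19), as did all 13 of eIF3 (median -1.29) and 4 of the 5 of the eIF2 group, and after quantile normalization 5, 12 and 4 passed as lower. Eif4ebp2 was at 38.1, 34.4, 54.7 and 19.6 RPKM at 8 cells and 3.84, 4.76, 3.15 and 18.6 at 12 hpf (-2.36 ± 0.55, adjusted p = 0.000452). Its levels in the 10 hpf juveniles, given above, come from the other set and were not tested against these.

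Of 72 members 48 were lower and 10 higher in 12 hpf whole embryos, or 80.6% against 79.1% of all unigenes, but all unigenes had passed mostly upward (56.3% higher and 22.9% lower). The median was -0.97 over the members and 1.17 over all unigenes, and after quantile normalization -1.07 and -0.18, with 8 higher and 45 lower. For 50 members the groups did not overlap, against 71.7% of all unigenes. Eif2ak4 DN11371 and EIF2AK2 DN13264, both kinases of eIF2, passed as higher here and turned in sign after quantile normalization, and EIF2AK2 DN13264 was also lost without 12 hpf library 3, 4 or 5 or 8-cell library 3, 5 or 6 (adjusted p from 0.0602 to 0.145). No test was run between the staged and hemisphere sets, whose tables were made apart. For 67 members at 1 RPKM or more in both sets at 8 cells the ratio of means ran from 0.205 to 14.1, with a median of 1.44.

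Other genes of protein synthesis were read from 5 lists by symbol, over the same tests. Between the sexes, where 40.2% of all unigenes were higher in the female, aminoacyl-tRNA synthetases, which charge tRNAs, were higher for 23 of 24 unigenes (median 3.53), ribosome rescue factors for 15 of 16 (median 3.50) and the TOR and translational control list for 19 of 25 (median 2.89). Cytosolic ribosomal proteins were higher for 39 of 80 (median 1.18) and mitochondrial translation factors for 7 of 12, with 1 lower (median 1.56).

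From egg to 32 cells, where 12.5% of all unigenes fell and 3.13% rose, 10 of 24 synthetases fell and 1 rose, and 5 of 16 rescue factors, 9 of 25 of the TOR list and 5 of 12 mitochondrial factors fell with 0 rising. Of 80 ribosomal protein unigenes 12 rose and 0 fell (median 0.88). From 32 cells to the tadpole, where 16.8% of all rose and 5.97% fell, 5 synthetases, 3 rescue factors, 4 of the TOR list, 2 ribosomal protein unigenes and 1 mitochondrial factor rose, and 1 of the TOR list fell. From tadpole to juvenile, where 16.5% of all fell and 47.5% rose, 14 synthetases fell and 1 rose (median -1.41), and 8 ribosomal protein unigenes fell and 2 rose (median -0.46). Of the rescue factors 5 fell and 1 rose, of the TOR list 4 fell and 6 rose, and of the mitochondrial factors 4 fell and 0 rose.

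The female against the egg gave few calls in these lists, where 23.7% of all unigenes were higher: 2 to 3 higher in each of the ribosomal protein, synthetase, TOR and rescue lists, 1 synthetase lower, and 0 calls among the mitochondrial factors. Between the hemispheres at 12 hpf, where 32.9% of all were higher and 15.3% lower in the vegetal hemisphere, 7 of 15 rescue factors, 5 of 24 synthetases, 6 of 25 of the TOR list and 2 of 78 ribosomal protein unigenes were higher. On the lower side were 1 of the TOR list and 1 ribosomal protein unigene, and 0 of 12 mitochondrial factors passed. In 12 hpf whole embryos against 8 cells, where 22.9% of all fell and 56.3% rose, 15 of 24 synthetases fell and 2 rose, and 6 of 78 ribosomal protein unigenes fell and 2 rose. There 7 rescue factors fell and 5 rose, 8 of the TOR list fell and 7 rose, and 6 mitochondrial factors fell and 1 rose.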

How the data were processed

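The authors' deposited tables give RPKM per unigene and library, made after HISAT2 alignment per the submitters' processing notes (its version is not given in the sources used here), for 19277 unigenes of a de novo assembly. Per the labels' protocols RNA was extracted with TRIzol and libraries were made with an Illumina TruSeq kit, strand-specific for the staged set but not for the hemisphere set, where reads from a gene and its antisense partner cannot be told apart. The authors' deposited sequencing table gives the counts of reads, the percent aligned and a fraction whose heading is not explained, and was used for depth only. For 7 staged libraries the description in that sequencing table holds a plus sign, which was read as pooled material. Per the authors' deposited headers the stage labelled 2.5 hpf is 2 hpf there, and both were taken as the same stage. Other columns of per-library values, 146 in number, were left out. A second staged sheet, with other symbols for 2724 unigenes and other values in 11 columns, was not used, and 59 members were found by its symbols, all shared. None of the unigene IDs was in the reference table, so symbols are those of the staged table.

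All tests were run on log2(RPKM + 1) with limma 3.58.1 (R 4.3.3), using lmFit and a trended eBayes fit. Tested were unigenes that reached 1 RPKM in at least 2 staged libraries (18704) or 4 hemisphere libraries (15697). Each set was fitted apart with 1 mean per group, which left 28 residual degrees of freedom in the staged and 18 in the hemisphere set. The Benjamini-Hochberg adjustment ran over all unigenes tested, with a threshold of 0.05. Alternatives were a pseudocount of 0.1, other filters, quantile normalization, the compared libraries fitted alone, each library left out in turn, and the library number as a block. In the hemisphere set libraries of the same number deviated together within a time. Over the animal and vegetal pairs the correlation was 0.550 to 0.701 at 8 cells and 0.144 to 0.246 at 12 hpf. These numbers were therefore taken as pairs, but only in the fits with the library number as a block. The main fits, which gave the differences, SE and p-values printed here, did not use the pairs. Whole embryos at 8 cells and 12 hpf had correlations from -0.05 to 0.11 and were not taken as pairs. The code was checked on simulated data. Python 3.11.15 (pandas 2.3.3, numpy 2.4.6) was used for tables and matplotlib 3.10.9 for figures.

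The members and lists were chosen with earlier results of these data known. Members could be named in a comparison if they passed and belonged to 44 core symbols or were among the 8 largest changes in a direction. Not all members that met this rule are named above. Eif4g3 DN18299, with the largest difference in favour of the female (5.34), is among those left out. Members outside the rule, such as Eef1b, Eif2d and Eif1b, were named after their values were seen.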

Additional observations from a re-analysis of the deposited data

Results flagged for a closer look

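The members with the largest changes between hemispheres at 12 hpf or between whole embryos were checked for a far library in both groups compared. In 4 of 46 checks of a member in a group, 1 library stood apart from the other 3 by Dixon's test. Chance alone gives about 1 in 20 for a single check. The checks shared libraries and were not independent of each other. Paip1 was at 60.05 RPKM in vegetal 12 hpf library 4, against 17.9 to 21.8 in the others. EIF4E DN18250 was at 9.38 RPKM in whole-embryo 8-cell library 6 and listed at 0 in the others, and EIF5 at 15.02 in that library against 3.77 to 5.32. Eif4ebp2 was at 18.6 RPKM in whole-embryo 12 hpf library 6, against 3.15 to 4.76.

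The hemisphere difference differed between 8 cells and 12 hpf for 11 members (limma interaction, n = 4 libraries per group). EEF1A1 DN14053 had an interaction of 4.15 ± 0.56, from 0.42 at 8 cells. Eif4ebp2 had 2.00 ± 0.77 (adjusted p = 0.0473), Paip1 1.99 ± 0.60 and EEF2K DN16310 1.90 ± 0.49. DENR had 1.45 ± 0.30, Eef1akmt1, a methyltransferase of eEF1A, 1.22 ± 0.39 (adjusted p = 0.0172), Eif6 0.97 ± 0.37 (adjusted p = 0.0482), MCTS1 0.87 ± 0.32 (adjusted p = 0.0355) and EIF3F 0.85 ± 0.33 (adjusted p = 0.0489). GSPT2 had -0.98 ± 0.33 and EIF2AK2 DN34517 -1.76 ± 0.45. After quantile normalization EEF1A1 DN14053, DENR, Paip1, GSPT2 and EIF2AK2 DN34517 still passed, at 5.07, 1.37, 2.18, -1.53 and -2.07.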

How the results depend on the processing

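From egg to 32 cells 7 passed with the compared libraries alone and 6 to 29 with 1 library left out. From 32 cells to the tadpole 11 passed after quantile normalization and 10 to 16 with 1 library left out. Between the sexes 20 passed with the compared libraries alone and 41 to 64 with 1 left out, and for females against eggs 5 to 11. Between hemispheres at 12 hpf 13 passed with the compared libraries alone and 18 to 25 with 1 left out. With 1 library left out, the F-test over stages gave 67 to 71, tadpole to juvenile 33 to 36, whole embryos 53 to 57 and the interaction 6 to 15. At 8 cells 0 members passed under every setting run.

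With the replicate block, that is the library number as a term, 0 passed at 8 cells, 30 at 12 hpf, 62 between whole embryos (whose numbers are not pairs) and 18 in the interaction. The block changed no call in 54 checks of results that met the rule for naming, between hemispheres at 12 hpf or between whole embryos. All of these had passed without the block, and those between whole embryos do not bear on the pairs. Without vegetal 12 hpf library 3 and whole 8-cell library 6 together, 22 passed at 12 hpf, 58 between whole embryos and 15 in the interaction.

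In all 157 results met the rule for naming, and not all of them are printed above. Quantile normalization left 113 of these 157 on their side of the threshold, lost 38 and turned 6. Turned were female against male Eif2ak4 DN11371 (-1.65) and EIF4G3 DN17714 (-0.74), vegetal against animal at 12 hpf Eef1akmt1 (-0.00438) and EIF4A3 DN17162 (-0.00886), and whole embryos Eif2ak4 DN11371 (-1.15) and EIF2AK2 DN13264 (-0.86). The cause was not tested. With a pseudocount of 0.1, 4 of the 157 were lost. Depth limits weak members, since the reads behind a unigene are unknown.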
